A study of Mus musculus with 3 samples.

Results

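Non-cycling cells positive for Eomes, the transcription factor that marks the intermediate progenitors of the cortex, are described here in 3 single-cell libraries of dorsal cortex from mouse pups. A cell was kept with at least 1000 detected genes and under 10% of its unique molecular identifiers (UMIs, single captured RNA molecules) in mitochondrial genes. A kept cell was a member with at least 2 UMIs of Eomes and none of Mki67 and Top2a (proliferation), Dlx2 (interneuron lineage), Sox10 (oligodendrocyte lineage) and Reln (Cajal-Retzius neurons). This took 765 of 13199 kept Emx1-Cre cells, 1433 of 13135 hGFAP-Cre cells and 425 of 9961 control cells, 2623 of 36295 in all. The members were thus chosen by the measured UMIs of these 6 genes, whose own levels are no result. Eomes itself was at 787.5 CPM in Emx1-Cre and 636.3 CPM in hGFAP-Cre members, against 521.9 CPM in control members, where CPM is a gene's part in the summed UMIs of a library's members on the usual scale. Just inside the threshold, at exactly 2 Eomes UMIs, lay 290 Emx1-Cre, 493 hGFAP-Cre and 170 control cells. Just outside it, at exactly 1 UMI with the other 5 genes at 0, lay 461, 825 and 372 cells, in the same library order.

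Both mutants were double conditional knockouts of Map2k1 and Map2k2, the genes of MEK1 and MEK2, the kinases that phosphorylate ERK. In the Emx1-Cre mutant the recombinase follows Emx1, active in progenitors of the dorsal telencephalon from early neurogenesis. In the hGFAP-Cre mutant it is driven by the human GFAP promoter, which turns on in radial glia at a later stage of gestation. The control is labelled WT, and per the protocol it carried the floxed Map2k1 and Map2k2 alleles. In all 3 groups the dye CellTrace Yellow had been put into the lateral ventricle at embryonic day 18. The dorsal cortex was dissociated with papain at postnatal day 2, and a sort took the cells positive for tdTomato. The labels do not name the allele behind tdTomato, the part of the dye in the gate or the number of pups behind a library. Each genotype had 1 library, so differences between libraries have no replicate check, no test was made, and every interval covers counting error only.

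Intermediate progenitors are born from radial glia, divide a few times away from the ventricle and give rise to glutamatergic neurons. Along this path, radial glia genes such as Pax6 and Vim give way to Neurog2 and Eomes, and then to Neurod1, Tbr1, Neurod2 and Neurod6 as the daughters become neurons. ERK signalling reaches the nucleus through immediate early genes such as Egr1 and Fos, and through feedback genes of the Sprouty, Spred and Dusp families.

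The members held 3688836 UMIs in the Emx1-Cre, 9079540 in the hGFAP-Cre and 3147824 in the control library, with a median per cell of 4145, 5664 and 6470 UMIs. The lowest kept cell had 2644 UMIs in the Emx1-Cre, 3065 in the hGFAP-Cre and 1332 in the control library, so barcodes had not been admitted at a like depth. Xist, expressed from the inactive X chromosome, was at 0.271 and 2.86 CPM in Emx1-Cre and hGFAP-Cre members, against 1410 CPM in control members. The Y-linked Ddx3y was at 35.8 and 45.1 CPM in the mutants and at 0 counts in the control, whose limit at 3 counts is 0.953 CPM. The mutant libraries thus read as male and the control as female, and sex and genotype cannot be told apart. Prm1, whose tail is part of a widely used hGFAP-Cre transgene, was at 145 CPM in hGFAP-Cre members, at 1 count in Emx1-Cre members and at 0 in control members. Map2k1 was at 13.3 and 13.9 against 9.21 CPM, and Map2k2 at 227 and 222 against 203 CPM, but these 3' tags need not lie in the deleted parts and check neither the deletion nor the labels. No barcode was shared by all 3 libraries, and 43 to 54 were shared by a pair.

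The other genes that define intermediate progenitors were present in every library. Mfap4, an extracellular matrix gene used as a marker of these cells, was at 162.9 and 166 CPM in Emx1-Cre and hGFAP-Cre members, against 113.4 CPM in control members. Rnd2, a small GTPase that acts in the migration of young neurons, was at 434.3 CPM in both mutants against 590.2 CPM. Markers of other Eomes-expressing cells were scarce: the 7 natural killer and T cell markers were at 0 in all libraries, and the 5 markers of mitral and tufted cells summed to 5.96 and 2.09 against 3.18 CPM. Cajal-Retzius markers other than Reln summed to 38.2 and 46.7 against 38.1 CPM.

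At least 3 UMIs over 7 lists of other lineages were found in 4.71% of Emx1-Cre, 10.2% of hGFAP-Cre and 7.53% of control members, and the share ratios and named genes were also computed without them. The 6 ependymal markers summed to 275 CPM in Emx1-Cre and 37.6 CPM in hGFAP-Cre members, against 1.91 CPM in control members. The 10 highest Emx1-Cre members held 78.9% of its Rsph1 UMIs, a gene of the motile cilium. The 7 microglial markers summed to 59.1 and 148 against 17.5 CPM. Erythroid markers reached 1019 CPM in hGFAP-Cre members, where a single cell held 5763 of the 5770 UMIs of Hbb-bs, a beta-globin gene. Interneuron markers summed to 39.6 and 96.5 against 76.2 CPM, mural markers to 15.7 and 49.9 against 7.62 CPM, and choroid plexus markers to 4.34 and 0.771 against 0.318 CPM. Astrocyte markers, many of which radial glia share, summed to 703 and 1055 against 1118 CPM. Upper-layer neuron markers summed to 280.3 and 236 against 602 CPM, and deep-layer ones to 146 and 108 against 165.5 CPM. Oligodendrocyte precursor markers summed to 26.0 and 10.9 against 49.9 CPM, and endothelial markers to 1.08 and 16.0 against 60.7 CPM. Predicted doublets made up 7.45% and 9.84% of mutant members and 5.88% of control members, and they were kept in the values given.

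The share of members among kept cells was highest in the hGFAP-Cre library. The Emx1-Cre library had 5.80% (95% interval 5.403 to 6.21), the hGFAP-Cre library 10.9% (10.4 to 11.5), against 4.27% (3.88 to 4.68) in the control. The hGFAP-Cre share was 2.56-fold that of the control (2.22 to 2.95) and the Emx1-Cre share 1.36-fold (1.15 to 1.60). With every cell thinned to 3000 UMIs before the rule, the shares were 4.91% and 7.01% against 2.47%, leaving out 1690 Emx1-Cre, 0 hGFAP-Cre and 770 control cells that were shallower. With at least 2000 detected genes the hGFAP-Cre share was still above the control, at a log2 ratio of 1.32, while the Emx1-Cre direction turned, at −0.49. Emx1-Cre members had a median of 1827 detected genes, against 2609 in the control. In microglia, which should lack Eomes, 2 or more Eomes UMIs were found in 1.42% of 281 Emx1-Cre, 6.87% of 364 hGFAP-Cre and 0.704% of 284 control cells, at median depths of 5337, 7206 and 11153 UMIs. Of all kept cells, 8.895% in the Emx1-Cre, 15.2% in the hGFAP-Cre and 6.18% in the control library had 2 or more Eomes UMIs, whatever the other 5 genes. The microglial shares lie below these in each library. The full rule was met by 3 of the Emx1-Cre, 13 of the hGFAP-Cre and 2 of the control microglia.

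Cycling Eomes-positive cells, which met the rule but for UMIs of Mki67 or Top2a, followed the same order as the members. They were 2.37% (2.12 to 2.65) and 3.55% (3.24 to 3.88) of kept cells in the Emx1-Cre and hGFAP-Cre libraries, against 1.46% (1.23 to 1.71) in the control. Of members and cycling cells together, they were 29.0% (26.3 to 31.9) and 24.5% (22.6 to 26.5) against 25.4% (21.9 to 29.2). The control interval overlaps both. Newborn neurons were less frequent in both mutants than in the control. These cells, with at least 2 UMIs of Neurod1 and no Eomes, made up 1.35% (1.16 to 1.56) and 4.01% (3.68 to 4.35) of kept cells in the mutants, against 6.80% (6.31 to 7.31) in the control. There were 178 such neurons beside 765 members in the Emx1-Cre library, 526 beside 1433 in the hGFAP-Cre library and 677 beside 425 in the control. Their median depth was 3446.5 and 4016 UMIs in the mutants against 5924 UMIs in the control. The newborn neuron shares were not repeated with thinned cells, and the part of depth in them was not tested. What the sort took in from each genotype bears on all of these shares and was not tested.

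**Figure D1:**
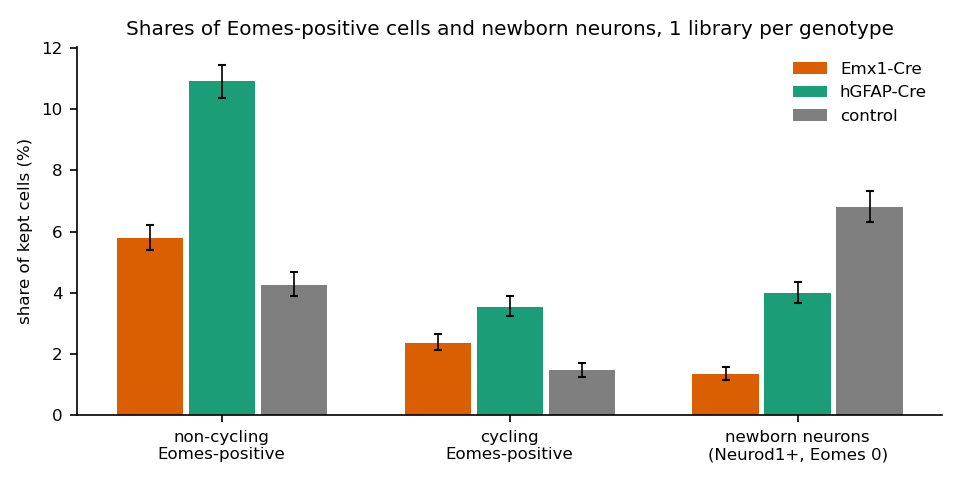
Shares of kept cells (%) that were non-cycling Eomes-positive members, cycling Eomes-positive cells or newborn neurons in the Emx1-Cre, hGFAP-Cre and control libraries, 1 library each; error bars are exact Clopper-Pearson 95% intervals. Members reach 10.9% in the hGFAP-Cre library against 4.27% in the control, whereas newborn neurons are lowest in the Emx1-Cre library.

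Among 8118 genes with a mean of at least 10 CPM over the 3 libraries, a gene was called past 1.5-fold on the scale of log2(CPM + 5). Called either way were 28.9% of genes in Emx1-Cre and 25.4% in hGFAP-Cre members. In Emx1-Cre members 680 genes (8.38%) were higher and 1665 (20.5%) lower than in control members, and in hGFAP-Cre members 736 (9.07%) were higher and 1329 (16.4%) lower. Both comparisons use the same control cells. A gene can pass this filter through a single library in which it is high. Calls were not confined to members. With the filter applied within all other kept cells, 8963 genes passed there. Of these, 945 were higher and 1660 lower in the Emx1-Cre library, and 882 higher and 1033 lower in the hGFAP-Cre library. The median gene lay at −0.19 in Emx1-Cre and −0.12 in hGFAP-Cre members, and list medians are read against these values. Counts of called genes in a list are likewise read against the shares over all 8118 genes. Scaling by the median of gene ratios moved those medians to −0.02 and −0.01 and gave 1102 higher and 976 lower genes in Emx1-Cre and 994 higher and 929 lower in hGFAP-Cre members. Long transcripts lay lower than short ones: with genes split into 3 equal groups by exon length, the longest had medians of −0.35 and −0.29 and the shortest 0.06 and 0.14. The part of sex, cell depth and transcript length in the values below was not tested.

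Neurog2 was higher and Neurod1 lower in the members of both mutants. Neurog2, the proneural factor that starts glutamatergic neurogenesis (GRCm38 chromosome 3, 127633135 to 127635631), was at 244.8 CPM (229 to 261) in Emx1-Cre and 351.9 CPM (340 to 364) in hGFAP-Cre members, against 101 CPM (90.2 to 112.8) in control members. Neurod1, which follows it, was at 164.6 and 151.5 CPM in the mutants, against 307.2 CPM. The log2 ratios were 1.24 and 1.75 for Neurog2 and −0.88 and −0.996 for Neurod1. After thinning to 3000 UMIs, 27.5% (24.3 to 31.0) of Emx1-Cre and 32.6% (30.2 to 35.1) of hGFAP-Cre members had Neurog2 without Neurod1, against 10.1% (7.44 to 13.4) of control members. Neurod1 without Neurog2 was found in 23.2% (20.1 to 26.5) and 23.03% (20.9 to 25.3), against 48.1% (43.3 to 52.99). Unthinned, Neurog2 alone was found in 27.7% and 30.0% against 8.71%, and Neurod1 alone in 26.7% and 27.1% against 56.5%. The share with neither gene was 37.4% and 33.8% after thinning, against 36.8% in the control, with overlapping intervals.

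**Figure D2:**
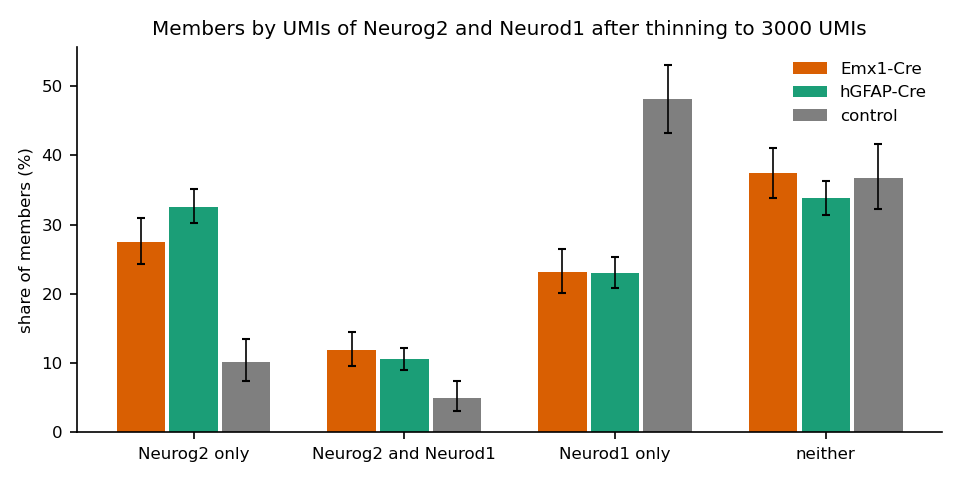
Share of members (%) with UMIs of Neurog2 only, of both genes, of Neurod1 only or of neither, after each member was thinned to 3000 UMIs, in the Emx1-Cre, hGFAP-Cre and control libraries; error bars are exact Clopper-Pearson 95% intervals. Neurog2 alone is more frequent in both mutants, and Neurod1 alone in the control, where it reaches 48.1% of members.

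Of 22 listed genes of intermediate progenitor identity, 19 passed the level filter. In Emx1-Cre members 5 were past 1.5-fold higher and 3 lower, and in hGFAP-Cre members 6 were higher and 2 lower, with medians of 0.30 and 0.02. Neurod4, a proneural factor downstream of Neurog2, was at 43.9 and 20.8 CPM in the mutants, against 7.94 CPM. Gadd45g, a growth arrest gene of newly committed cells, was at 122 and 134 against 53.1 CPM. Hes6, an antagonist of Hes1, was at 386 and 449 against 252.6 CPM. All 3 genes were higher in both mutants. Insm1, a zinc finger factor that promotes the formation of these progenitors, went the other way, at 96.8 and 133 CPM against 206.8 CPM. Btg2, an antiproliferative gene of neurogenic divisions, was past 1.5-fold lower in Emx1-Cre and not in hGFAP-Cre members, at 167 and 249.7 against 288 CPM. After thinning, it was found in 33.8% (30.3 to 37.4) of Emx1-Cre and 43.2% (40.6 to 45.8) of hGFAP-Cre members, against 35.1% (30.6 to 39.9) of control members. The difference between the mutants was not tested.

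Of 22 listed genes of newborn glutamatergic neurons 21 passed, 10 were lower in Emx1-Cre and 18 in hGFAP-Cre members, none was higher, and the medians were −0.58 and −1.07. Neurod6 was at 106 and 199 CPM in the mutants, against 381 CPM in the control. Tbr1, the factor that follows Eomes in young neurons, was at 90.5 and 106.8 against 231 CPM. Neurod2 was at 148 and 112.6 against 361 CPM. All 3 factors were lower in both mutants. Some cytoskeletal genes differed between the mutants, which was not tested: Stmn1, a regulator of microtubules, was at 10744 CPM in Emx1-Cre and 5445 CPM in hGFAP-Cre members, against 7877 CPM in control members. Gap43, a growth cone protein, was at 96.5 and 42.6 against 128 CPM, and Nrp1, a semaphorin receptor, at 97.1 and 42.9 against 148 CPM.

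Among members without a Neurod1 UMI (417 Emx1-Cre, 687 hGFAP-Cre and 114 control cells), the newborn neuron list had medians of −0.44 and −1.01, with 9 and 15 of the 20 genes that passed past 1.5-fold lower. Among members with one (348, 746 and 311 cells), the medians were −0.52 and −0.97, with 9 and 14 of 21 lower. Neurog2 was higher in both subsets, at 278 and 451 against 153 CPM without and at 205 and 259 against 81.3 CPM with Neurod1. In cycling Eomes-positive cells Neurog2 was at 279 and 420 against 190 CPM.

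Genes of projection neuron layers had a negative median in both mutants. Of 21 listed genes 18 passed, 10 were lower in each mutant and none was higher, with medians of −0.78 in both. Pou3f1, a factor of upper-layer neurons, was at 77.3 and 78.2 CPM in Emx1-Cre and hGFAP-Cre members, against 286.9 CPM. Cux2, another upper-layer factor, was at 16.8 and 21.6 against 60.04 CPM. Lhx2, a selector gene of cortical identity, was at 302 and 366 against 816 CPM. All 3 were lower in both mutants. Bcl11b, of subcortical projection neurons, was not past 1.5-fold, at 30.4 and 17.3 against 21.9 CPM.

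Among 23 regional patterning genes 17 passed, with 2 higher and 6 lower in Emx1-Cre and 0 higher and 7 lower in hGFAP-Cre members, and medians of −0.16 and −0.55. The Emx1-Cre median turned to 0.01 with size factors. The higher ones in Emx1-Cre members were Prox1, a factor known for dentate gyrus granule neurons, at 55.3 CPM in Emx1-Cre and 25.7 CPM in hGFAP-Cre members against 15.6 CPM, and Nr2f2, a nuclear receptor of caudal and ventral territories, at 30.1 and 13.9 against 9.85 CPM. Emx1, whose promoter drives 1 of the 2 recombinases, was at 67.2 and 106 against 102 CPM.

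Radial glia genes split. Of the 20 listed genes all passed, 11 were lower in Emx1-Cre and 8 in hGFAP-Cre members, and 2 were higher in each, with medians of −0.68 and −0.35. Both higher genes were the same: Vim, the intermediate filament of radial glia, was at 759.9 and 547 CPM in the mutants against 160.7 CPM, and Dbi, an acyl-CoA-binding protein, at 2922 and 2967 against 1154 CPM. After thinning, Vim was found in 55.2% of Emx1-Cre, 39.6% of hGFAP-Cre and 17.2% of control members. Hopx, a homeodomain protein of radial glia, was at 10.8 and 34.3 against 74.3 CPM, and 10 cells held 60.7% of its control UMIs. Without the 10 highest members of each library the log2 ratio of Hopx was −2.23 in Emx1-Cre and −0.30 in hGFAP-Cre members, the second no longer past 1.5-fold. Sox2 was at 84.9 and 118 against 174 CPM, whereas Pax6 was at 180.5 and 196 against 192 CPM. In microglia, outside the neural lineage, Dbi and Vim were higher too: Dbi was at 1430 and 1911 against 492.5 CPM, and Vim at 330.3 and 458 against 166 CPM. The hGFAP-Cre microglia also held UMIs of progenitor genes. There Neurog2 was at 17.0 and Eomes at 20.5 CPM, against 0.576 and 1.15 CPM in control microglia. The part of such RNA in the microglial values was not tested.

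Of 20 listed ERK response genes 9 passed, 6 were lower and 0 higher in Emx1-Cre members, 3 were lower and 1 higher in hGFAP-Cre members, and the medians were −0.90 and −0.57. Dusp4, a phosphatase that inactivates ERK, was at 2.98 CPM (1.49 to 5.34) and 6.39 CPM (4.85 to 8.26) in the mutants, against 27.0 CPM (21.6 to 33.4). Spry2, a feedback inhibitor of receptor signalling, was at 13.3 and 18.8 against 50.8 CPM. Epha4, an ephrin receptor, was at 156 and 149 against 364 CPM. Ier3, an early response gene, was past 1.5-fold higher in hGFAP-Cre members, at 17.1 and 25.7 against 10.2 CPM. Of the genes under the filter, Dusp6 was at 1.90 and 2.75 against 13.7 CPM and Etv5 at 1.08 and 1.21 against 10.2 CPM, while Spry1 was at or below 3.52 CPM in every library.

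The ERK response medians were −0.74 and −0.36 in cycling Eomes-positive cells, −1.11 and −0.27 in newborn neurons, and 0.14 and −0.04 in microglia, which arise outside the neural lineage. The level filter was applied within each class, so these medians do not run over the same genes. Dusp4, for example, had a mean of 1.96 CPM in microglia and did not pass there. Of 18 cascade components, 16 passed, 2 were lower in each mutant and 0 higher, with medians of −0.28 and −0.21. Sos1, the exchange factor that loads RAS, was at 30.1 and 32.0 against 53.1 CPM. Of 14 receptor tyrosine kinases 8 passed, with 2 higher in each mutant and 4 lower in Emx1-Cre and 3 in hGFAP-Cre members, and medians of −0.59 and −0.25. Igf1r was at 56.7 and 57.7 against 125.5 CPM and Fgfr1 at 30.1 and 33.2 against 63.2 CPM. Ntrk2, the receptor for BDNF, was higher, at 78.9 and 86.1 against 41.3 CPM, as was Fgfr2, at 27.1 and 18.8 against 9.53 CPM.

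Egr1, an immediate early transcription factor induced through ERK (chromosome 18, 34859823 to 34864984), had the most negative log2 ratio in both mutants of the 125 genes that the naming rule took. It was at 15.45 CPM (11.7 to 20.0) in Emx1-Cre and 14.54 CPM (12.2 to 17.2) in hGFAP-Cre members, against 463.8 CPM (440 to 488) in control members, for log2 ratios of −4.52 and −4.585. After thinning, a UMI of Egr1 was found in 2.97% (1.84 to 4.50) of Emx1-Cre and 1.81% (1.19 to 2.65) of hGFAP-Cre members, against 40.8% (36.1 to 45.6) of control members. Unthinned, these shares were 4.31% and 3.28% against 52.5%. Cycling Eomes-positive cells showed the same order, with 5.43% and 3.004% against 51.4% after thinning. In microglia, Egr1 was found in 21.4% of Emx1-Cre and 50.7% of hGFAP-Cre against 58.7% of control cells.

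The ratios of other immediate early genes were smaller in size. Ier2 was at 56.9 and 55.1 against 239.5 CPM and Fos at 102 and 130.2 against 311 CPM. Of 22 listed immediate early and dissociation genes 15 passed, 8 were lower in Emx1-Cre and 4 in hGFAP-Cre members, 1 and 2 were higher, and the medians were −0.61 and −0.43. Klf2, a zinc finger factor of the same list, was higher, at 56.1 and 35.1 against 2.22 CPM. In microglia Klf2 was at 82.4 and 375 against 104 CPM. Ier2 was there at 196 and 408 against 377 CPM, and Fos at 651 and 910 against 709 CPM. The time from dissection to droplet was not given, and its part in these levels was not tested.

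**Figure D3:**
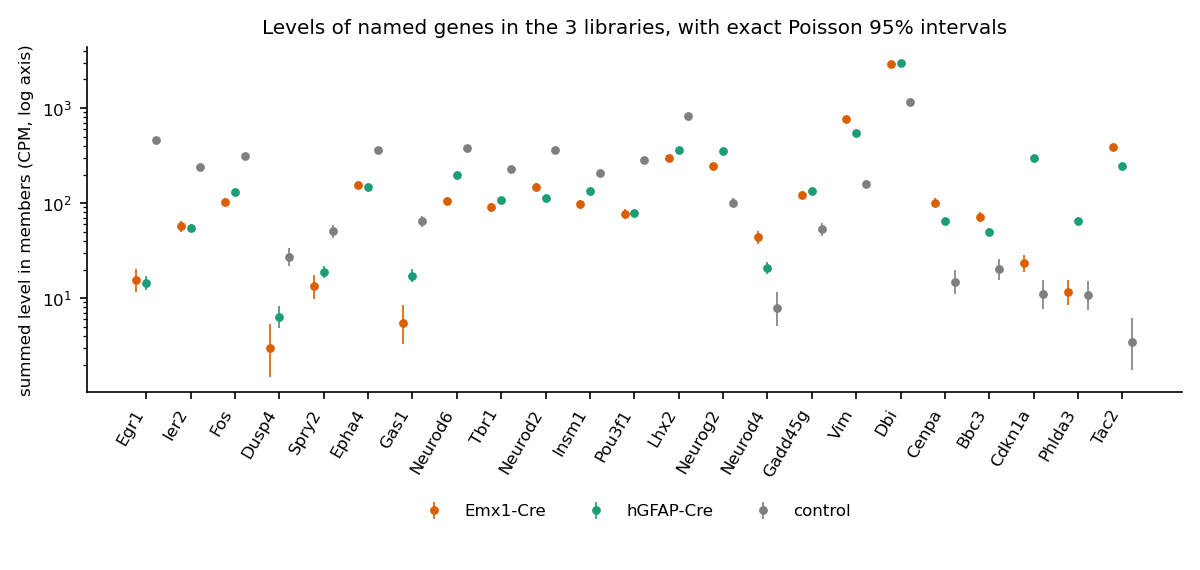
Summed level of named genes in members (CPM, log axis) in the Emx1-Cre, hGFAP-Cre and control libraries, with exact Poisson 95% intervals. Egr1 lies near 15 CPM in both mutants against 463.8 CPM in the control, Tac2 and Vim lie above the control in both, and Cdkn1a and Phlda3 are highest in the hGFAP-Cre library.

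Of 23 NOTCH pathway genes 16 passed, with 3 higher and 4 lower in Emx1-Cre and 6 higher and 3 lower in hGFAP-Cre members, and medians of 0.03 and 0.22. Dner, a NOTCH ligand of neurons, was at 83.2 and 42.1 against 20.0 CPM. Notch1 was at 83.5 and 77.5 against 47.6 CPM, and Dll3 at 39.6 and 77.7 against 34.6 CPM. The effector Hes5 was at 65.3 and 66.3 against 108 CPM, but after thinning it was found in 10.9% of Emx1-Cre and 9.63% of hGFAP-Cre members against 8.49% of control members, with overlapping intervals. Hes1 was at 11.7 and 16.5 against 34.3 CPM, but its direction turned to log2 ratios of 0.56 and 0.62 with cells thinned before the rule, and to 0.19 in hGFAP-Cre members without the 10 highest cells of each library. Of 11 SHH pathway genes 6 passed, 3 were lower in Emx1-Cre and 1 in hGFAP-Cre members, none was higher, and the medians were −0.57 and −0.36. Gas1, a SHH co-receptor, was at 5.42 and 17.3 against 64.5 CPM. Wnt7b, a WNT ligand of cortical neurons, was at 14.9 and 17.3 against 69.6 CPM.

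Of 39 listed genes of migration and adhesion 34 passed, 14 were lower in Emx1-Cre and 18 in hGFAP-Cre members, 3 and 2 were higher, and the medians were −0.49 and −0.63. Plxna4, a semaphorin co-receptor, was at 50.1 and 63.3 against 199 CPM. Cdh4, a cadherin, was at 41.2 and 62.6 against 175 CPM, and Lrp8, a receptor of reelin, at 109.5 and 190.4 against 346.9 CPM. Unc5d, a netrin receptor of multipolar cells, was at 164 and 192 against 368 CPM. Cxcr4, the receptor of Cxcl12 that guides these cells in the subventricular zone, was higher, at 17.1 and 19.4 against 5.72 CPM.

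Some transcripts of mitosis were higher although Mki67 and Top2a were at 0 in every member. Of 28 listed G2/M genes 11 passed, 8 were higher in Emx1-Cre and 7 in hGFAP-Cre members, 0 were lower, and the medians were 1.49 and 0.93. Genes low in the control, such as Birc5, could pass the filter through the mutants, which can raise these medians. Over all 28 listed genes the levels summed to 1251 and 994 against 720 CPM. Cenpa, the centromeric histone, was at 101 and 64.9 against 14.9 CPM, Ube2c, a ubiquitin-conjugating enzyme of mitotic exit, at 85.7 and 44.5 against 16.8 CPM, and Birc5, or survivin, at 32.3 and 19.7 against 4.13 CPM. Mutant members were shallower than control members, and with all cells thinned to 3000 UMIs before the rule the medians were 1.08 and 0.58. In cycling Eomes-positive cells, with the level filter applied within them, the same list had medians of −0.42 and −0.28. Of 24 S phase genes 18 passed and 4 were higher and 0 lower in each mutant: Dut, Tipin, Uhrf1 and Mcm6. The S phase medians of 0.10 and 0.12 turned to −0.26 and −0.15 with that thinning. Dut, which clears dUTP, was at 311 and 289.3 against 125.8 CPM. Mcm6, at 36.9 and 37.0 against 22.2 CPM, turned to log2 ratios of −0.26 and −0.089 with thinning before the rule, and of −0.14 and −0.12 in members without a Neurod1 UMI.

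Of 22 genes of cell cycle exit 18 passed, with 4 higher in each mutant, 4 lower in Emx1-Cre and 2 in hGFAP-Cre members, and medians of −0.20 and 0.10. Over all 8118 genes, 8.38% were higher and 20.5% lower in Emx1-Cre, and 9.07% higher and 16.4% lower in hGFAP-Cre members. Cdkn1a, the p21 inhibitor that p53 induces (chromosome 17, 29090976 to 29100727), was at 23.3 CPM (18.7 to 28.8) in Emx1-Cre and 300.6 CPM (289 to 312) in hGFAP-Cre members, against 11.1 CPM (7.75 to 15.5) in control members. Cdkn1c, the p57 inhibitor, was lower, at 17.1 and 18.5 against 55.6 CPM. Ccnd2, a D-type cyclin, was at 286.5 and 342 against 557.5 CPM. After thinning, a UMI of Cdkn1a was found in 2.68% of Emx1-Cre, 18.5% of hGFAP-Cre and 1.18% of control members. Unthinned, it was found in 4.58%, 22.5% and 3.53%. In microglia these shares were 17.3% and 40.2% against 22.5% after thinning, so Cdkn1a was highest in the hGFAP-Cre library there too. Those hGFAP-Cre microglia also held UMIs of progenitor genes, with Neurog2 at 17.0 against 0.576 CPM in control microglia. The part of such RNA in their Cdkn1a was not tested.

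Of 22 genes of p53 signalling and apoptosis 15 passed, 3 were higher and 1 lower in Emx1-Cre, 6 higher and 0 lower in hGFAP-Cre members, and the medians were 0.07 and 0.28. Phlda3, a p53 target that restrains AKT, was at 11.7 and 65.4 against 10.8 CPM. Ccng1, cyclin G1, was at 8.95 and 24.2 against 8.26 CPM. The proapoptotic genes Bbc3 and Bax were higher in both mutants: Bbc3 was at 71.0 and 49.3 against 20.3 CPM, and Bax at 614.8 and 592.5 against 368.5 CPM. In microglia Bax was higher as well, at 454.8 and 453 against 227 CPM, as was Phlda3, at 25.4 and 36.1 against 5.76 CPM, whereas Bbc3 was at 16.1 and 27.6 against 24.2 CPM. Trp53 itself was, in members, at 121 and 134 against 125.5 CPM.

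Of the hGFAP-Cre members, 248 cells (17.3%) had at least 2 UMIs of Cdkn1a and 1110 had none. At least 2 were found in 18 Emx1-Cre members (2.35%) and 7 control members (1.65%). The split was made after the values were seen and is a description of cells within 1 library. Phlda3 was at 276 CPM in the cells with Cdkn1a and 9.91 CPM in those without it, and Ccng1 at 79.0 and 10.1 CPM. Eda2r, a death receptor gene under p53, was at 41.9 and 0.451 CPM, and Aen, an apoptosis-enhancing nuclease, at 117 and 42.1 CPM. The cells with Cdkn1a also had more Vim (1017 and 371 CPM) and Neurog2 (435.5 and 319 CPM), and less Neurod1 (97.3 and 171 CPM). Their median depth was 6731 UMIs, against 5436 UMIs in the cells without.

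Of the genes the naming rule took, Tac2 had the highest log2 ratio in both mutants. Tac2 encodes the neurokinin B precursor (chromosome 10, 127724478 to 127731768). It was at 387 CPM (367 to 408) in Emx1-Cre and 243.6 CPM (234 to 254) in hGFAP-Cre members, against 3.49 CPM (1.74 to 6.25) in control members, for log2 ratios of 5.53 and 4.87. After thinning, 27.3% (24.0 to 30.7) of Emx1-Cre and 12.8% (11.2 to 14.7) of hGFAP-Cre members had a UMI of it, against 0.236% (0.00597 to 1.31) of control members. Unthinned, the shares were 29.0% and 15.3% against 0.471%. In the control, 10 of the 11 Tac2 UMIs came from 1 cell. In cycling Eomes-positive cells Tac2 was at 117 and 76.5 CPM against 0 counts, in newborn neurons at 133 and 288 against 0.188 CPM, and in microglia at 9.22 and 5.66 against 0.864 CPM.

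At least 2 UMIs of Tac2 were found in 172 Emx1-Cre (22.5%) and 168 hGFAP-Cre (11.7%) members, and in 1 control member. The following splits were also chosen after the values were seen. In the Emx1-Cre library, the Tac2 cells had less Neurog2 than cells without Tac2 (156 and 275 CPM) and more Neurod1 (203 and 148 CPM). They also had less Vim (426 and 881 CPM) and more Pcp4, a calmodulin-binding peptide (949.7 and 479 CPM). In the hGFAP-Cre library the same genes ran in the same direction: Neurog2 was at 198 and 373 CPM, Neurod1 at 289.4 and 133 CPM, Vim at 387 and 578 CPM and Pcp4 at 1058 and 496 CPM. Calb2, the gene of calretinin, was at 18.7 and 24.5 CPM in Emx1-Cre and at 157 and 19.8 CPM in hGFAP-Cre cells. In hGFAP-Cre members Cdkn1a was at 62.4 CPM in Tac2 cells and 338 CPM in cells without Tac2. Ebf1, an early B-cell factor, was higher in the Tac2 cells of both, at 56.1 and 21.1 CPM in Emx1-Cre and 167 and 31.5 CPM in hGFAP-Cre members.

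**Figure D4:**
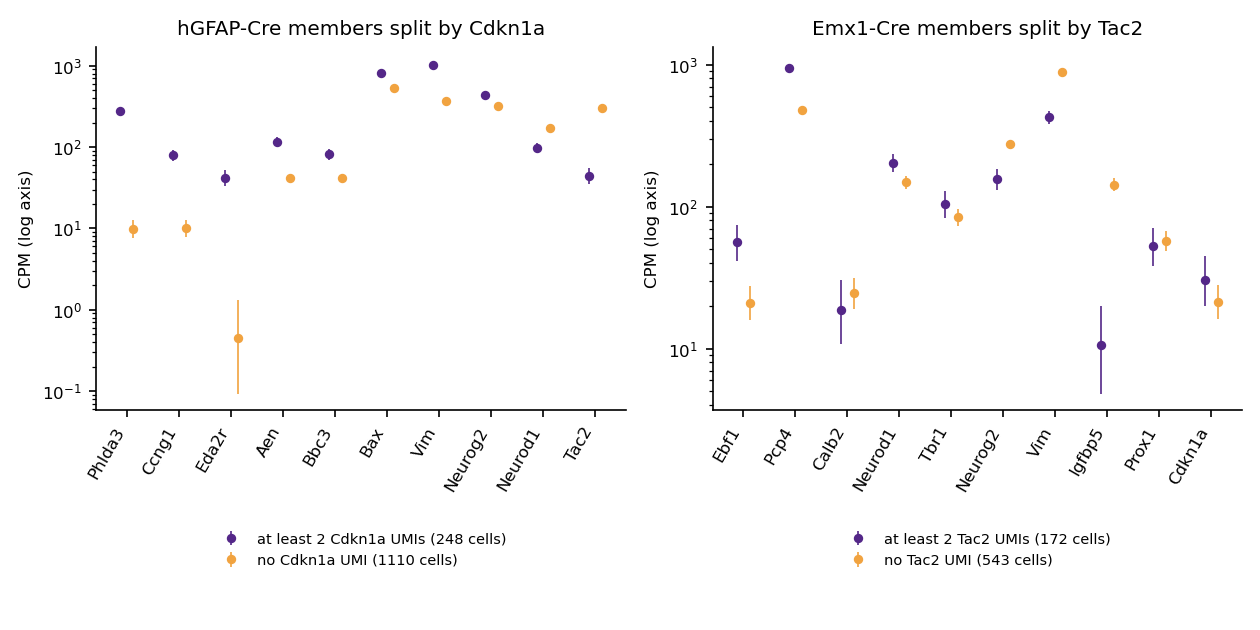
Levels (CPM, log axis, exact Poisson 95% intervals) in hGFAP-Cre members with at least 2 Cdkn1a UMIs and with none (left), and in Emx1-Cre members with at least 2 Tac2 UMIs and with none (right). Phlda3, Ccng1 and Eda2r lie higher in the 248 Cdkn1a cells, and Pcp4 and Ebf1 in the 172 Tac2 cells, which have less Vim, Neurog2 and Igfbp5.

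Another gene higher in both, 1500015O10Rik, listed in RefSeq as Ecrg4 and named here after its values were seen, was at 420 and 199 against 11.1 CPM. Lgals1, encoding galectin-1, was at 192 and 114 against 31.1 CPM. Gamt, an enzyme of creatine synthesis, was at 271 and 245.8 against 56.2 CPM. The metallothionein genes Mt1 and Mt2 were at 473 and 474 against 110.9 CPM and at 149 and 255 against 50.8 CPM, but in Emx1-Cre members 62.2% of the Mt1 UMIs lay in 10 cells. Uaca was at 189.8 and 242 against 53.1 CPM. In microglia Lgals1 was higher as well, at 855 and 723 against 168 CPM, whereas Mt1 was at 809.9 and 972 against 948 CPM.

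Of the genes the naming rule took outside the lists, Nav2, a neuron navigator, was at 13.5 and 30.6 against 116.6 CPM. Tenm4, a teneurin, was at 39.8 and 69.2 against 231 CPM, and Adgrl2, a latrophilin, at 39.6 and 58.5 against 180.1 CPM. Chl1, a cell adhesion molecule, was at 82.9 and 61.7 against 212 CPM. Scrn1 was at 17.9 and 91.2 against 130.9 CPM and Mfge8, a secreted bridge to phagocytes, at 17.1 and 55.6 against 113.4 CPM. Rbfox1, a splicing regulator, was at 31.2 and 23.1 against 125.8 CPM.

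Hnrnpa0, Eef2 and Cwc22 were lower in both mutants in members and in each of the other cell classes measured. Hnrnpa0, an RNA-binding protein, was at 269.5 and 273.5 CPM in Emx1-Cre and hGFAP-Cre members against 993.7 CPM, and in microglia at 117 and 110.4 against 282 CPM. Eef2, an elongation factor, was at 309 and 276 against 623 CPM in members and at 269 and 299 against 535 CPM in microglia. Cwc22, a splicing factor whose copy number varies between mouse strains, was at 80.8 and 21.0 against 178.9 CPM in members and at 72.6 and 21.9 against 115.8 CPM in microglia. The libraries also differed in microglia for many other genes. Of all 7863 genes that passed the level filter in microglia, 1046 were past 1.5-fold higher and 1721 lower in the Emx1-Cre contrast. In the hGFAP-Cre contrast, 996 of the 7863 were higher and 1026 lower. Of the genes the naming rule took and that were past 1.5-fold in members, 14 of 38 higher and 16 of 64 lower ones in the Emx1-Cre contrast were past it in the same direction in microglia. In the hGFAP-Cre contrast these were 27 of 42 higher and 18 of 56 lower ones. In both contrasts they included Dut, at 96.8 and 144 against 36.6 CPM in microglia, Tipin, at 73.8 and 92.3 against 29.1 CPM, Id3, at 265 and 90.2 against 31.4 CPM, and Igf1r, at 35.2 and 34.7 against 63.6 CPM. Among them too were Plxna4, at 21.9 and 20.5 against 45.5 CPM in microglia, and Adgrl2, at 30.55 and 32.9 against 58.2 CPM. So were Mfge8, at 22.5 and 33.3 against 56.2 CPM, and Dner, at 20.75 and 11.7 against 5.18 CPM. What set the libraries apart across cell classes was not tested.

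**Figure D5:**
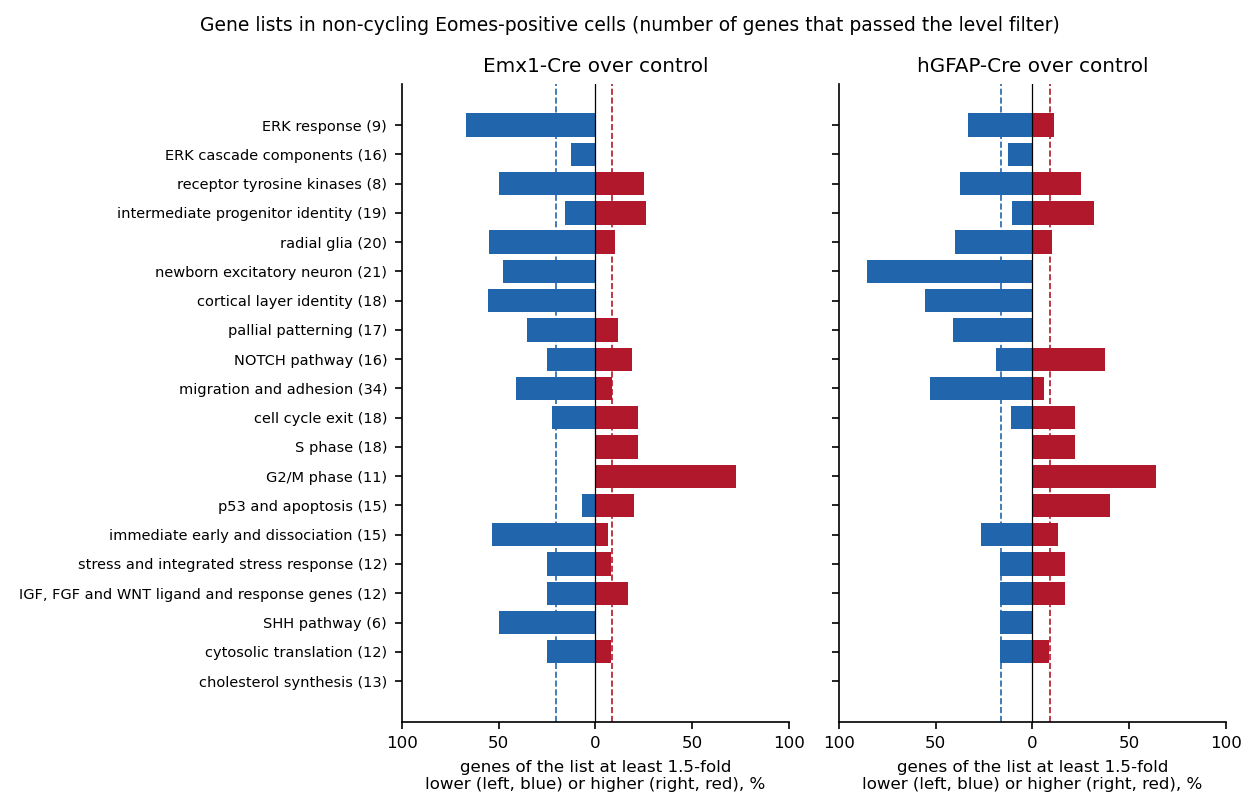
Share (%) of the genes of each list that passed the level filter and were at least 1.5-fold lower (left, blue) or higher (right, red) in Emx1-Cre or hGFAP-Cre members than in control members; numbers in brackets are the genes that passed, and dashed lines give the same share over all 8118 genes. Newborn neuron and layer identity genes lie beyond the line for lower genes in both mutants and G2/M genes beyond that for higher genes. G2/M genes low in the control could pass the filter through the mutants.

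None of the 13 cholesterol synthesis genes that passed was past 1.5-fold in either mutant, with medians of −0.26 and −0.06. Of 12 cytosolic translation genes, 1 was higher in each mutant, 3 were lower in Emx1-Cre and 2 in hGFAP-Cre members, and the medians were −0.03 and −0.05. Of 12 stress genes, 1 was higher and 3 lower in Emx1-Cre, 2 higher and 2 lower in hGFAP-Cre members, with medians of −0.34 and −0.25. Cryab, a small heat shock protein, was higher in both mutants, at 19.0 and 38.4 against 1.27 CPM. The 10 highest cells held 57.1% of the Cryab UMIs in Emx1-Cre and 45.3% in hGFAP-Cre members. In microglia Cryab was at 14.4 and 53.8 against 8.64 CPM. Phgdh was past 1.5-fold higher in hGFAP-Cre members only, at 55.0 and 102 against 64.2 CPM. Of 12 IGF, FGF and WNT ligand and response genes, 2 were higher in each mutant, 3 were lower in Emx1-Cre and 2 in hGFAP-Cre members, with medians of −0.05 and 0.27. With size factors the sign turned for both translation medians (0.16 and 0.07), for the last list in Emx1-Cre (0.10) and for cholesterol synthesis in hGFAP-Cre members (0.06). Its Id3, a BMP-induced inhibitor of differentiation, was at 104 and 114 against 25.7 CPM. The 10 highest cells held 65.5% of the Id3 UMIs in Emx1-Cre, 45.8% in hGFAP-Cre and 75.3% in control members. After thinning, Id3 was found in 5.37% of Emx1-Cre and 5.79% of hGFAP-Cre members against 4.25% of control members, with overlapping intervals. Igfbp5, which binds IGFs, was at 104 and 132.5 against 53.7 CPM, but at a log2 ratio of −0.056 in Emx1-Cre members with a Neurod1 UMI.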

How the data were processed

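The deposited values were raw UMI counts per gene and barcode, produced with Cell Ranger 5.0.0 per the file headers and on build mm10 per the submitters' processing notes. Each of the 3 libraries listed 27998 genes. Counts were summed over the members of a library and given as CPM with exact Poisson 95% intervals; shares have exact Clopper-Pearson 95% intervals. Log2 ratios used a pseudocount of 5 CPM, genes needed a mean of 10 CPM over the libraries, and 1.5-fold was the size called; the floor for 0 counts was 3 counts. Thinning drew 3000 UMIs per cell without replacement. Doublets were predicted by Scrublet in scanpy 1.11.5 at an expected rate of 10% and left out only as an alternative. Microglia needed 3 of 4 markers. Named genes were up to 4 per list and contrast by size of log2 ratio, the core genes of a list, and, for genes in no list, 6 in each direction per contrast with a mean of at least 50 CPM and intervals apart. That last step skipped genes linked to sex or coding for mitochondrial, ribosomal or haemoglobin products, and predicted genes with no name. Core genes and genes of the splits, such as Stmn1, Bcl11b, Nr2f2, Cxcr4, Unc5d, Eda2r, Pcp4, Calb2 and Ebf1, were picked after their values were seen. The members, the 20 gene lists and the 15 marker lists were chosen with earlier results of these data known. The calls were also run on counts simulated with Poisson error and known folds. The simulation held no spread between cells or between replicate libraries, so it cannot check the calls against either. Coordinates are from GENCODE on GRCm38. Python 3.11.15, numpy 2.4.6, scipy 1.17.1 and pandas 2.3.3 were used. Results for some genes are not reported here.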

Additional observations from a re-analysis of the deposited data

Results flagged for a closer look

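In members, 6 of the 8118 genes were past 1.5-fold in opposite directions in the 2 mutants, with counting intervals apart from the control in both; the difference between the mutants was not tested, and both use the same control. Nrgn, encoding the calmodulin-binding protein neurogranin, was at 67.5 CPM in Emx1-Cre and 14.0 CPM in hGFAP-Cre members against 23.5 CPM in control members, with log2 ratios of 1.35 and −0.59. Cck, the cholecystokinin gene, was at 50.1 and 11.8 against 21.3 CPM (1.07 and −0.65). Sulf1, a heparan sulfatase gene, was at 28.2 and 7.27 against 14.3 CPM (0.78 and −0.65). Gad2, a gene of GABA synthesis, was at 7.32 and 29.7 against 17.8 CPM (−0.89 and 0.61), and in all other kept cells at 3.24 and 18.2 against 31.5 CPM. Tmsb15b1 was at 59.4 and 0.881 against 34.9 CPM (0.69 and −2.76), and Gm10709 at 465 and 1.32 against 293.9 CPM (0.65 and −5.56). In all other kept cells Gm10709 was at 437 and 0.866 against 289 CPM, and Tmsb15b1 at 46.5 and 1.27 against 17.5 CPM.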

How the results depend on the processing

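No paired analysis was possible because each genotype had 1 library. With at least 1 Eomes UMI the log2 share ratio of hGFAP-Cre members was 1.10 in place of 1.35. The Emx1-Cre share ratio, 0.44, became 0.99 with cells thinned before the rule and −0.49 with at least 2000 detected genes. At a mean of at least 1 CPM, 1122 genes were higher in Emx1-Cre members in place of 680. With size factors from the median of gene ratios, 1102 were higher and 976 lower there, in place of 680 and 1665. The ERK response median lay between −1.06 and −0.60 in Emx1-Cre and between −0.85 and −0.37 in hGFAP-Cre members over the alternatives. Of 200 ratios of named genes past 1.5-fold, the directions that turned were those of Mcm6 (−0.26 in Emx1-Cre and −0.089 in hGFAP-Cre members with cells thinned before the rule, −0.14 and −0.12 in members without a Neurod1 UMI), Hes1 (0.56 and 0.62 with cells thinned before the rule, and 0.19 in hGFAP-Cre members without the 10 highest members) and Igfbp5 (−0.056 in Emx1-Cre members with a Neurod1 UMI); the cause was not tested. The splits by a Neurod1 UMI present and by the 10 highest members were chosen after seeing the data. Between 176 and 200 of the 200 ratios were still past 1.5-fold in the same direction under each alternative. Most of these genes were named by the size of their ratios in the same cells, so these counts are no independent check. The level filter at a mean of 1 CPM could not change a ratio. Depth limits genes near 1 CPM, where 3 counts correspond to 0.813 CPM in Emx1-Cre, 0.330 CPM in hGFAP-Cre and 0.953 CPM in control members. Without the 10 highest members of each library, the hGFAP-Cre ratios of Insm1 (−0.55), Sos1 (−0.55), Ccnd2 (−0.52) and Mfge8 (−0.42) were no longer past 1.5-fold.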
